A study of Mus musculus with 12 samples.

Results

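The comparison set naive CD4 T cells of mice labelled RARα TG, RARα being the retinoic acid receptor α, against cells of mice labelled RARα KO, both activated for 24 h with 10 nM retinoic acid (RA), the active form of vitamin A. It rests on 4 of the 12 libraries of the series, 2 from each line. All 11922 genes with at least 1 FPKM (fragments per kilobase of transcript, scaled to the size of the library) in at least 2 of the 12 libraries were compared, out of 52635 in the deposited table. The mice were of the inbred strain C57BL/6. All cells were activated through CD3 and CD28 in charcoal-stripped serum, which holds little retinoid of its own, with 20 ng/mL of IL-6, 10 ng/mL each of IL-23, IL-21 and IL-1β, 5 ng/mL each of TGFβ-1 and TNFα, and antibodies against IFNγ and IL-4 (10 μg/mL each). These are conditions that drive naive cells towards the Th17 state, in which a helper T cell makes interleukin-17. The same lines cultured without RA (0 nM, 2 libraries each) and the wild-type libraries at both doses serve as a background to the comparison. The labels give neither the design of the transgene, its promoter, nor the part of the gene removed in the KO line, and they do not state whether the libraries of a group came from separate mice. The p-values therefore measure only the spread between these libraries, which may in part be technical.

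Retinoic acid receptors are nuclear receptors that sit on DNA as a pair with a retinoid X receptor, most often at direct repeats of a hexamer half-site. Without ligand the pair recruits corepressors, and with RA it recruits coactivators, so that the same receptor can lower or raise a gene. In T cells RA is known for inducing receptors that guide cells to the gut, for supporting the regulatory T-cell factor Foxp3, and for opposing the Th17 programme.

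Rara, the gene for the receptor itself (GRCm38, chr11:98927818-98974942, plus strand), read 16.8 and 17.6 FPKM in the KO libraries with RA and 126 and 119 FPKM in the TG libraries with RA. The groups lay far apart, with a mean of 17.2 ± 0.567 (SD, n = 2) against 123 ± 4.71 (SD, n = 2), a ratio of 7.12. The fitted difference was 2.76 ± 0.09 (SE) on the log2(FPKM + 1) scale, with an adjusted p of 1.37e-06. Without RA the gene read 19.5 and 19.3 FPKM in KO and 72.8 and 63.3 in TG, a difference of 1.76, and the difference was larger with RA than without it by 1.01 (adjusted p = 0.00135). Wild-type libraries with RA read 12.3 and 14.2 FPKM. The KO libraries were thus not below wild type in reads over the whole gene, so the label KO is not matched by a lower Rara value, and these libraries are called KO here by their label only. A value over the whole gene does not show which exons gave the reads.

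Library depth, read from the steps that single reads leave in the FPKM values, was 18047421 and 17798012 reads for KO and 16798777 and 25414194 reads for TG with RA. Over all 12 libraries it ran from 16289689 to 25534431. It limits counting error only. Replicate libraries of a group correlated at 0.981 to 0.987 over the tested genes on the log2(FPKM + 1) scale. By Xist and the Y-linked genes the KO libraries with RA were both female (Xist 47.4 and 56.7 FPKM), whereas TG replicate 1 was male (0.00332) and TG replicate 2 female (72.1). The KO libraries without RA were female too (55.0 and 72.7), and every wild-type library was male (Xist at most 0.00315). Wild type and KO thus differed in sex as well as in line, and the 2 cannot be told apart where they are compared. A term for sex in the fit left 876 genes higher and 631 lower. Only the TG groups held both sexes, replicate 1 being male and replicate 2 female at both doses. The term is thus the difference between TG replicates, and sex cannot be told apart from it. Each of the 10 listed CD4 T-cell markers could be tested, with Cd3d, Cd3e, Cd4 and Trac between 53.7 and 429 FPKM in these 4 libraries. Of the 10, 1 was called higher in TG and 1 lower, at a median of -0.15. Trbc2 averaged 462 FPKM in KO and 252 in TG, and Cd247 19.6 and 28.6. Among 13 B-cell markers the summed level was 47.0 and 95.5 FPKM in KO and 134 and 137 in TG, but most of the sum was Ighm, the immunoglobulin μ chain (31.3 and 53.0 against 101 and 95.9). None of the 12 B-cell markers tested was called. For 18 class II, dendritic and myeloid markers the sums were 78.6 and 150 against 159 and 149, and Itgam was listed at 0 throughout. Of the 10 tested, 1 was called higher and 1 lower. H2-DMa averaged 46.4 FPKM in KO and 99.3 in TG, and Cd68 2.53 and 1.65. The 8 natural killer markers summed to 2.59 and 4.23 against 1.34 and 2.56, and the 6 CD8 and γδ T-cell markers to 13.5 and 15.4 against 8.24 and 8.52, where Trdc, Tcrg-C2 and Tcrg-C4 were called lower. Which part these cells had in any gene's difference was not tested, and in bulk RNA fewer cells of a type and less RNA per cell cannot be told apart.

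With RA, 1124 genes were higher in TG than in KO and 1076 were lower at an adjusted p under 0.05, which is 9.43% and 9.03% of the genes tested. A gene past that threshold is said below to have been called. The higher genes had moved further. Of them 253 differed by at least 2-fold and 50 by at least 4-fold, against 93 and 16 of the lower genes. The median size of the difference was 0.56 against 0.36 on the log2 scale. The 1124 include 85 genes that reached 1 FPKM in both TG libraries with RA and in no other library. The 1076 include 3 genes for which that held of KO with RA. Those genes passed the filter only through these libraries and so had to differ, which adds more to the higher counts than to the lower. The 2 TG and 2 KO values did not overlap in any called gene. Groups of 2 separate easily, though, and over all tested genes 26.1% had TG wholly above KO and 34.9% wholly below. Leaving out 1 of the 4 libraries at a time gave 692 to 810 higher and 454 to 581 lower genes, and fitting only these 4 libraries gave 779 and 545. Without RA, 859 genes (7.21%) were higher and 1050 (8.81%) lower in TG than in KO. The difference between the lines itself differed between the doses, in the direction of TG with RA for 1034 genes (8.67%) and against it for 815 (6.84%).

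**Figure D1:**
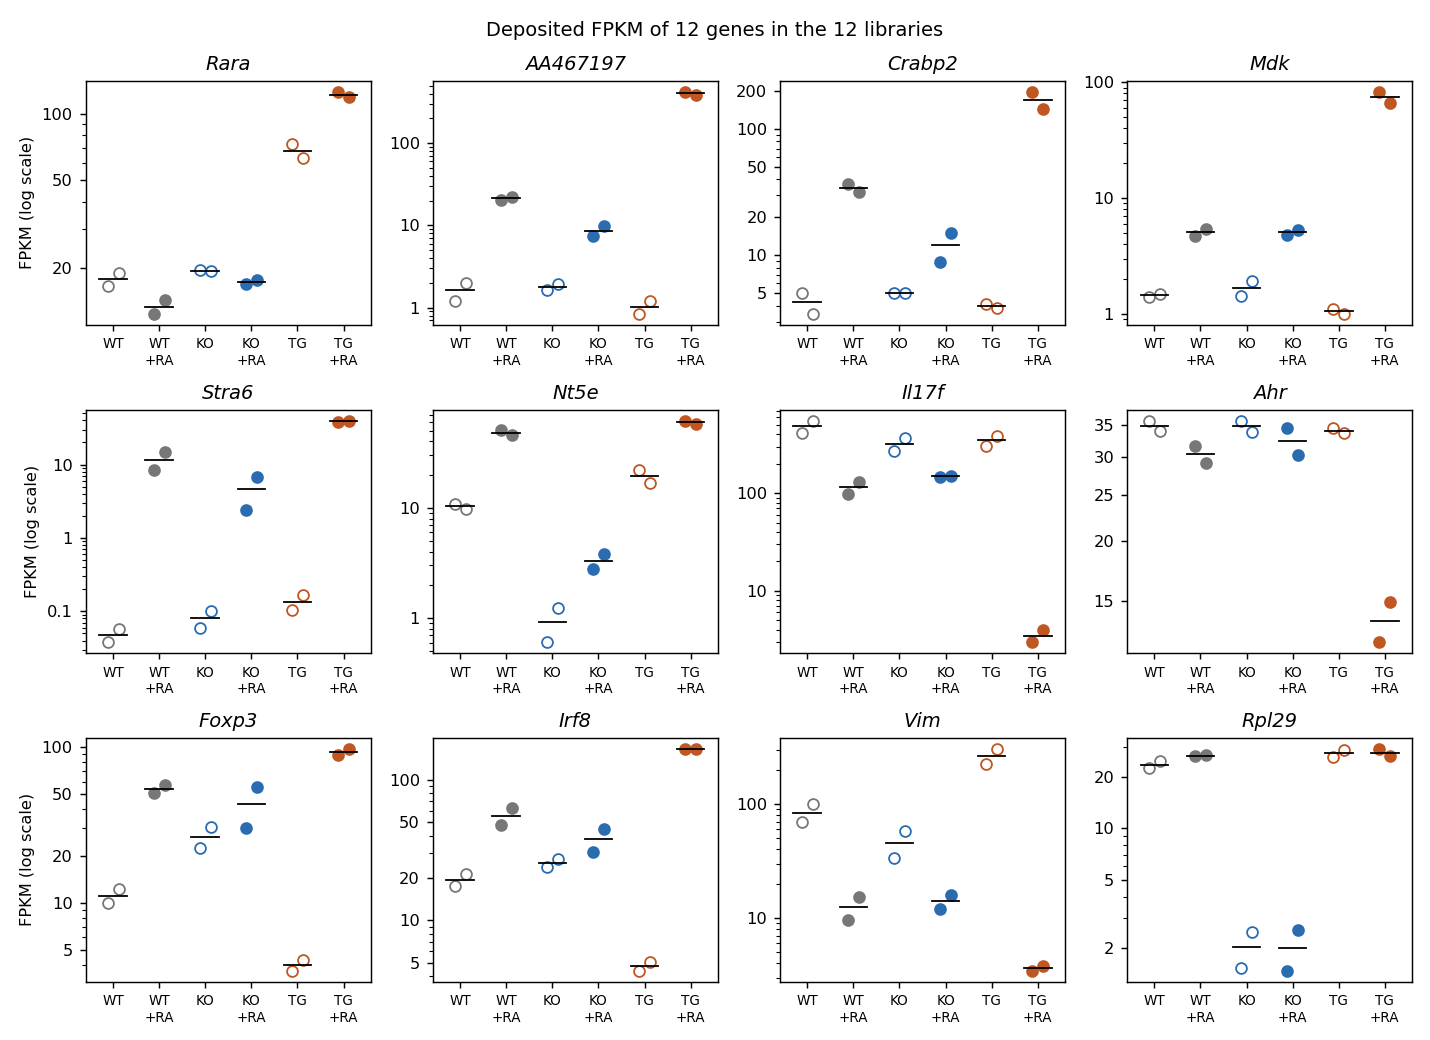
Deposited FPKM on a log axis for 12 genes, each point 1 library, lines the mean of 2 libraries, open points without RA and filled points with 10 nM RA, grey wild type, blue KO and orange TG. AA467197, Crabp2, Mdk and Stra6 stand highest in the 2 TG libraries with RA, Il17f and Ahr lowest there, while Rpl29 is low in all 4 KO libraries.

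The gene with the largest fitted rise on the log2(FPKM + 1) scale was AA467197, also known as Nmes1 (chr2:122636986-122641191), a small mitochondrial protein gene that hosts a microRNA. It read 7.37 and 9.76 FPKM in KO and 417 and 386 FPKM in TG, 46.9 times as much on average. The fitted difference was 5.41 ± 0.17 (adjusted p = 1.37e-06). The order depends on the scale for genes of low level, and the ratio of means was larger for Eya2 (95.2) and Hrh3 (57.2), described below. For AA467197 all other groups lay at or below 22.3 FPKM, wild type with RA included, and without RA the 2 lines did not differ at the threshold (-0.46, adjusted p = 0.10). The level in TG libraries with RA thus stood alone among the 6 groups.

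Among genes that bind, carry, make or break down retinoids, several carriers and enzymes rose. Crabp2 (chr3:87948666-87953376), the cytosolic protein that hands RA to its receptor, read 8.84 and 15.1 FPKM in KO and 196 and 143 in TG. Its fitted difference was 3.74 ± 0.24 (adjusted p = 2.64e-05), and wild type with RA lay between at 36.5 and 31.7. Stra6 (chr9:58063788-58153996), the membrane receptor that takes up retinol, read 2.39 and 6.80 against 37.5 and 39.7 FPKM, a difference of 2.95 ± 0.35 (adjusted p = 0.000732). The groups did not overlap, and wild type with RA lay between them at 8.5 and 14.8 FPKM. Dhrs3, which reduces retinaldehyde back to retinol, read 0.360 and 0.422 in KO and 6.61 and 5.36 in TG. Its fitted difference of 2.32 grew to 3.63 with a pseudocount of 0.1 and to 3.88 in a fit to recovered reads, as the scale shrinks changes of low genes. Cyp26b1, an enzyme that breaks RA down, was listed at 0 in both KO libraries and read 2.71 and 1.57 FPKM in TG. Its relative Cyp26a1 was under the filter on low values, at 0.0625 and 0 in KO and 1.01 and 0.821 in TG, and was not tested. Dgat1, which can esterify retinol, was higher by 0.62 ± 0.08, whereas Rdh12, Rdh10 and Adh5, dehydrogenases of retinol or of other alcohols, were called lower, with differences of -0.63, -0.35 and -0.29. The calls of Rdh10 and Adh5 were lost in the fit to these 4 libraries alone. Over the list of 27 genes for retinoid handling, 14 could be tested, of which 6 were higher, 3 lower and 5 not called. Among all tested genes 9.43% were higher and 9.03% lower. The median over the list was 0.14 against -0.03 for all tested genes. Cyp26b1, which is 1 of the 6, passed the filter only through the TG libraries with RA and so had to be higher.

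Of the other receptors, Rarg was higher (4.29 and 2.98 FPKM in KO, 6.20 and 5.99 in TG, adjusted p = 0.0213), a call that was lost in 6 alternative fits, among them those without KO replicate 2 and without either TG library. Rxrb, the most abundant retinoid X receptor here, was not called (-0.18, adjusted p = 0.069). Rarb and Rxrg were listed at or near 0 everywhere. Among 24 coactivators and corepressors of nuclear receptors 3 were higher and 2 lower, near the shares of 9.43% and 9.03% among all tested genes. The lower were fewer without KO replicate 2 or either TG library, and the median over the list was 0.01. Those higher included Nrip1, a corepressor that RA itself induces (14.7 and 19.9 against 45.5 and 48.8 FPKM, 1.41 ± 0.12, adjusted p = 0.000143), and the coactivator Ncoa7 (0.77 ± 0.07).

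A list of 21 genes known to respond to RA held 15 that could be tested, and each of the 15 was higher in TG with RA, at a median of 1.51. Of these, 2, Cyp26b1 among them, passed the filter only through the TG libraries and so had to differ. The list was drawn up with earlier results of these data known, so its count is a description. Mdk (chr2:91929805-91932297), the heparin-binding growth factor midkine, read 4.81 and 5.35 FPKM in KO, 4.72 and 5.42 in wild type and 82.2 and 66.7 in TG. The difference of 3.63 ± 0.12 (adjusted p = 1.37e-06) had no counterpart between KO and wild type, whose values overlapped. Ccr9, the chemokine receptor that directs T cells to the small intestine, read 1.42 and 1.47 against 11.3 and 10.9 (2.31 ± 0.17, adjusted p = 6.3e-05). Itga4, the α4 subunit of the gut-homing integrin, read 20.7 and 23.1 against 43.8 and 47.3 (1.02 ± 0.15), and its partner Itgb7 was not called (61.7 and 49.1 against 72.1 and 64.7). Wild-type Itga4 with RA, at 41.3 and 32.6 FPKM, reached nearly the TG level, whereas wild-type Ccr9, at 2.70 and 1.41, stayed near KO. Cd38, an ectoenzyme that splits NAD, read 2.25 and 4.09 against 13.9 in each TG library, and Tgm2, a transglutaminase, 20.5 and 28.3 against 49.9 and 47.4. Asb2, Hic1 and Gfi1, an adaptor of a ubiquitin ligase and 2 transcriptional repressors, were higher by 1.49, 1.51 and 1.37.

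Without RA none of the 15 was higher in TG and 6 were lower, among them Gfi1 (8.36 and 6.23 in KO, 1.08 and 0.492 in TG), Tgm2 (12.4 and 13 against 3.23 and 3.46) and Itga4 (4.10 and 3.09 against 1.02 and 0.667). For these 3 the TG line had the lower level without ligand and the higher level with it. The difference between the doses was called in 14 of the 15, the exception being Rarg. Of the 15, 14 or 15 were called with any 1 library left out, and 13 in the fit to the 4 libraries.

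**Figure D2:**
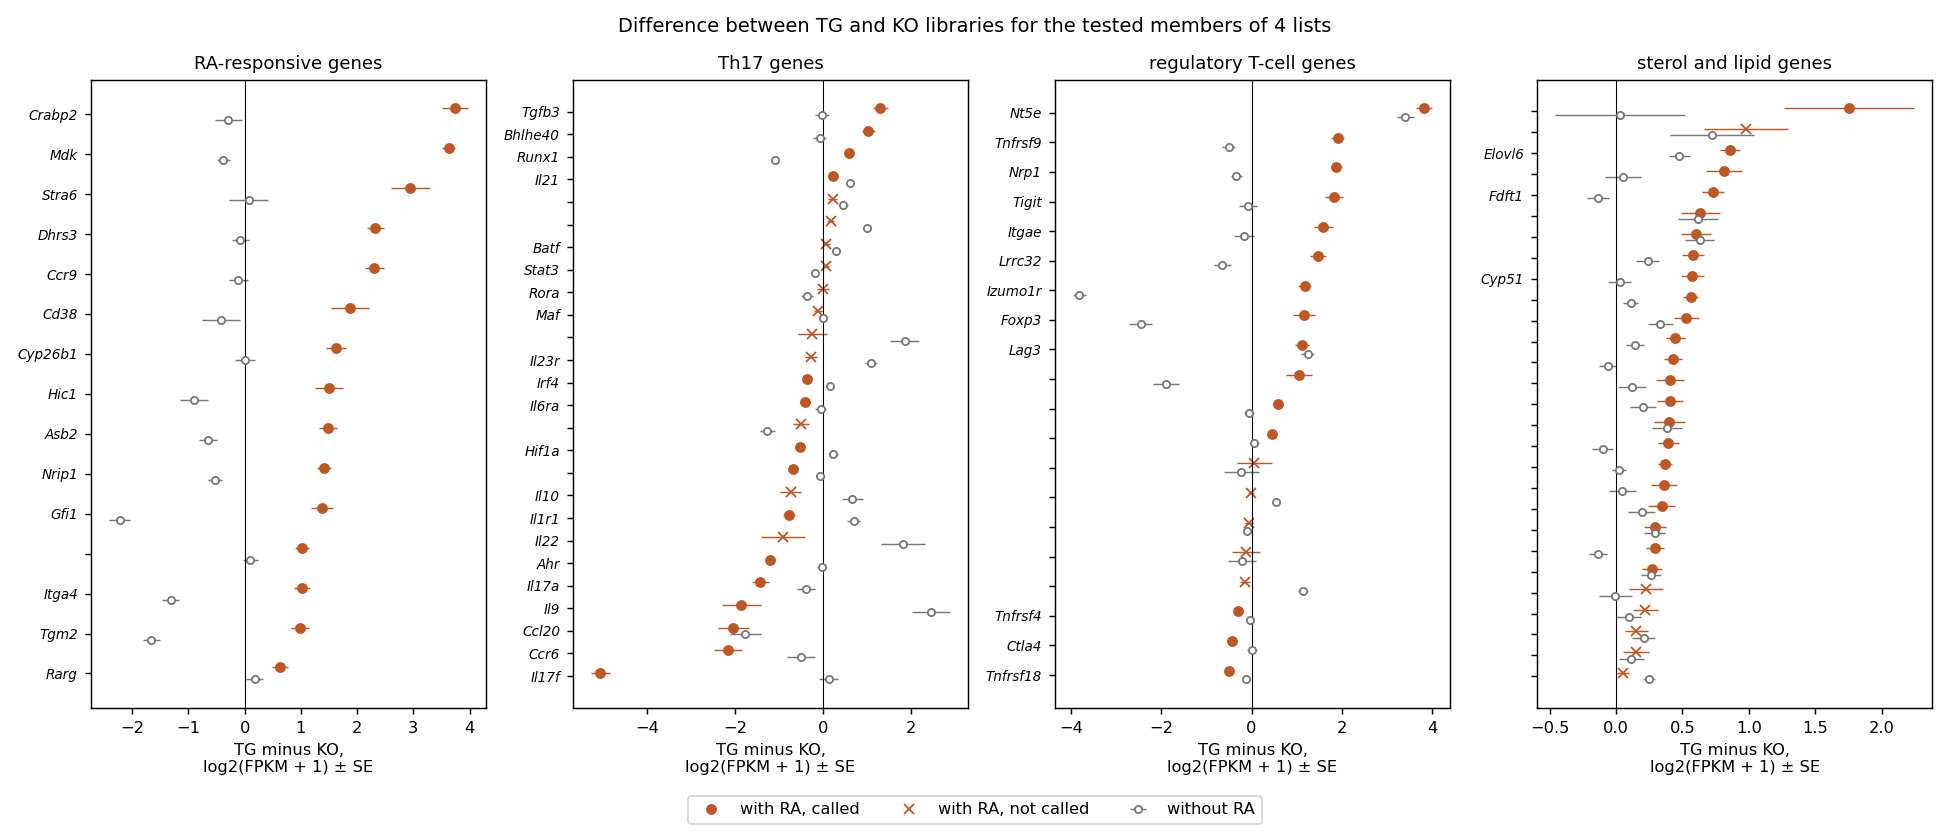
Fitted TG minus KO difference with its SE on the log2(FPKM + 1) scale for each tested member of 4 lists, with the symbol given for members described in the text, orange with RA (dots called, crosses not called) and open grey without RA. The 15 RA-responsive genes lie right of 0 with RA and at or left of 0 without it, apart from small positive values such as Rarg, while Th17 genes lie mostly left of 0 with RA.

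Promoter sequences were searched for the receptor's classical site, a direct repeat of half-sites (AGGTCA, the variant GGGTCA, the variant AGTTCA or the variant GGTTCA) spaced by 1, 2 or 5 bases on either strand, within the 250 bases before each RefSeq start (GRCm38.p6). Of 32851 such windows 0.426% held a repeat, and of the 10562 windows of tested genes 0.218% did. The share was 0.181% of 1103 windows of genes higher in TG and 0.095% of 1049 windows of genes lower in TG. None of the 177 windows of 133 genes named by rule held one, which says only that these letters are absent from those windows. Rarb, the textbook example with a repeat spaced by 5, shows the site and is printed for comparison, although the gene itself was listed at 0 or at most 0.0107 FPKM in every library. Igsf23, an immunoglobulin-superfamily gene, has the largest difference of the 3 called genes whose window held a repeat, here spaced by 1 and read on the strand opposite to the gene. Both were picked after the values were seen. The windows are given on the gene's strand with the repeat in capitals. They are chr14:16575477-16575726 (minus strand) for Rarb and chr7:19950744-19950993 (minus strand) for Igsf23.
Rarb: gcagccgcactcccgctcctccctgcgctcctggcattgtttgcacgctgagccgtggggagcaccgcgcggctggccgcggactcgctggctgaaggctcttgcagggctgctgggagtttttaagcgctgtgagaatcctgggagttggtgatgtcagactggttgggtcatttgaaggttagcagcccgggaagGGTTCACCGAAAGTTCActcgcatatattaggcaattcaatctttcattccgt
Igsf23: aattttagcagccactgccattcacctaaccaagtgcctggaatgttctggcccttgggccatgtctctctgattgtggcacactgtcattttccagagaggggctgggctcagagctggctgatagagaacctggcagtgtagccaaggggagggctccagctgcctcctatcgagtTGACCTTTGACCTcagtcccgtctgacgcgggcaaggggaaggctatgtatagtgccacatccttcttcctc
Igsf23 read 1.30 and 1.81 FPKM in KO and 10.7 and 8.28 in TG with RA (2.04 ± 0.16, adjusted p = 8.54e-05), while wild type with RA read 2.58 and 3.01. The other called genes with a repeat, Casd1 (0.27) and Isca1 (-0.23), differed little.

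Several of the largest rises belonged to no list. Hrh3, the histamine H3 receptor gene (chr2:180099465-180104488), read 0.0881 and 0.304 FPKM in KO and 9.14 and 13.3 in TG with RA. Eya2, a transcriptional coactivator and phosphatase (chr2:165595032-165771727), read 0.0374 and 0.0948 against 6.69 and 5.90. In the other groups Hrh3 stayed at or below 0.546 FPKM and Eya2 at or below 0.124. H1fx, which encodes a linker histone, read 0.410 and 1.02 against 13.7 and 18.2 (3.32 ± 0.26). Trat1, an adaptor of the T-cell receptor complex, read 6.48 and 3.78 against 63.7 and 39.4 (3.10 ± 0.30), while wild type with RA stayed near KO at 6.98 and 4.31. Zbtb32, a zinc-finger repressor in lymphocytes that was in the list of T-cell fate factors, read 2.59 and 5.10 against 29.5 and 29.7 (2.71 ± 0.30). In all, 95 genes reached 1 FPKM in both TG libraries with RA and in no other library, and for 8 genes that held of KO with RA. These genes passed the filter only through those libraries and so had to be higher there.

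Among genes lower in TG with RA the largest fall on the log2(FPKM + 1) scale was that of Il17f (chr1:20777146-20790617), a signature cytokine of Th17 cells. It read 147 and 150 FPKM in KO and 2.97 and 3.97 in TG, 42.7 times less on average, a fitted difference of -5.07 ± 0.22 (adjusted p = 3.36e-06). The order depends on the pseudocount, and with one of 0.1 H60b, described below, had the larger difference (-6.70 against -5.39 for Il17f). Without RA the lines overlapped in Il17f, at 269 and 370 against 307 and 389 FPKM, and wild type with RA, at 98.6 and 131, was close to KO. Il17a, its close relative, was expressed at a lower level and read 6.39 and 8.92 against 1.98 and 2.42 (-1.42 ± 0.20, adjusted p = 0.00168). Ahr, the aryl hydrocarbon receptor that supports interleukin-22 and Th17 function, read 34.4 and 30.3 against 12.3 and 14.9 (-1.20 ± 0.09, adjusted p = 7.17e-05). Cyp1a1, a classical target of that receptor, was lower as well, at 7.81 and 7.84 against 0.534 and 1.14 (-2.28 ± 0.17), and it was also lower without RA. Wild type with RA read 3.36 and 2.40 for Cyp1a1, between the lines, and 31.6 and 29.1 for Ahr, overlapping KO. Whether the differences of these 2 genes are linked was not tested. Irf4, needed for Th17 differentiation, read 326 and 314 against 249 and 251 (-0.35 ± 0.05). Ccr6, the chemokine receptor of Th17 cells, read 18.0 and 20.7 against 2.76 and 4.46 (-2.16 ± 0.32). Its ligand Ccl20 read 2.34 and 6.52 against 0.251 and 0.194, a call that was lost in the fit to the 4 libraries alone. Hif1a (-0.52), Il1r1 (-0.77), Il6ra (-0.40) and Il9 were also called lower. All 4 calls were lost without KO replicate 1 (-0.37, -0.64, -0.35 and -1.79), and each was also lost without at least 1 other library. These were either TG library for Hif1a, TG replicate 1 for Il1r1, KO replicate 2 and TG replicate 2 for Il6ra, and KO replicate 2 and TG replicate 1 for Il9.

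Not every gene of the programme was lower. Bhlhe40 (1.04 ± 0.14), Runx1 (0.60), Tgfb3 (1.31, passing the filter only through the TG libraries) and Il21 (0.23) were called higher in TG with RA, the last of them in no fit with 1 library left out, while Batf (0.08), Maf (-0.11), Stat3 and Rora (0.00) were not called. Il22 read 1.20 and 1.92 FPKM in KO and 0.375 and 0.319 in TG and was not called (adjusted p = 0.26), and neither was Il10 (0.677 and 0.901 against 0.0909 and 0.0601, adjusted p = 0.065). Over the list of 27 Th17 genes, 26 were tested, 11 were lower, 4 higher and 11 not called, with a median of -0.38. Among all tested genes 9.03% were lower and 9.43% higher. Without RA the balance was the other way, with 10 higher and 3 lower in TG, against 7.21% and 8.81% of all tested genes. The change in the difference between doses was called in the negative direction for 15 of 26, against 6.84% of all tested genes. Leave-one-out fits gave 8 or 9 lower and 3 higher members.

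Regulatory T-cell genes moved largely upward, with 12 of 20 tested members higher, 3 lower and a median of 0.82. Among all tested genes 9.43% were higher and 9.03% lower. Nt5e, the ectoenzyme CD73 that makes adenosine (chr9:88327197-88372092), read 2.77 and 3.84 FPKM in KO and 61.8 and 57.4 in TG (3.83 ± 0.18, adjusted p = 5.84e-06). It was also higher in TG without RA, by 3.41, and wild type read 50.4 and 45.7 with RA, so KO was the line apart. Tnfrsf9, the costimulatory receptor 4-1BB, read 8.41 and 8.71 against 38.2 and 31.9 (1.91 ± 0.14). Tigit, an inhibitory receptor, read 3.16 and 3.44 against 15.7 and 12.9 (1.82 ± 0.20), and Lag3, another, 19.3 and 18.3 against 39.9 and 44.1 (1.12 ± 0.15). Lag3 was also higher in TG without RA, by 1.24. Nrp1, a semaphorin receptor, was higher by 1.88, Itgae, the αE integrin that binds epithelium, by 1.59, and Lrrc32, which holds latent TGF-β on the cell surface, by 1.47. Izumo1r, the folate receptor 4 gene, read 47.4 and 65.4 with RA in KO and 127 in each TG library, whereas without RA it read 39.4 and 39.9 against 2.27 and 1.55. The TG line thus held both the highest and the lowest value of this gene.

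Foxp3, the lineage factor of regulatory T cells, read 30.4 and 55.3 FPKM in KO and 89.4 and 97.2 in TG with RA (1.16 ± 0.25, adjusted p = 0.0137). KO replicate 2 lay near wild type (50.4 and 57.1), and without KO replicate 1 the difference fell to 0.74. The call was lost without TG replicate 1 (1.22), without TG replicate 2 (1.10) and when only the 4 libraries were fitted. Without RA Foxp3 was lower in TG, at 3.66 and 4.29 against 22.6 and 30.6 (-2.46). Members in the other direction with RA were Tnfrsf18 (-0.50 ± 0.05), Ctla4 (222 and 191 against 149 and 157) and Tnfrsf4 (119 and 127 against 103 and 96.3), all receptors of activated and regulatory T cells. The calls of Ctla4 and Tnfrsf4 were lost in the fit to 4 libraries. Leaving out 1 library at a time gave 8 to 12 higher members, and the same fit to 4 libraries gave 8. The lower members numbered 1 without KO replicate 1 or either TG library.

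**Figure D3:**
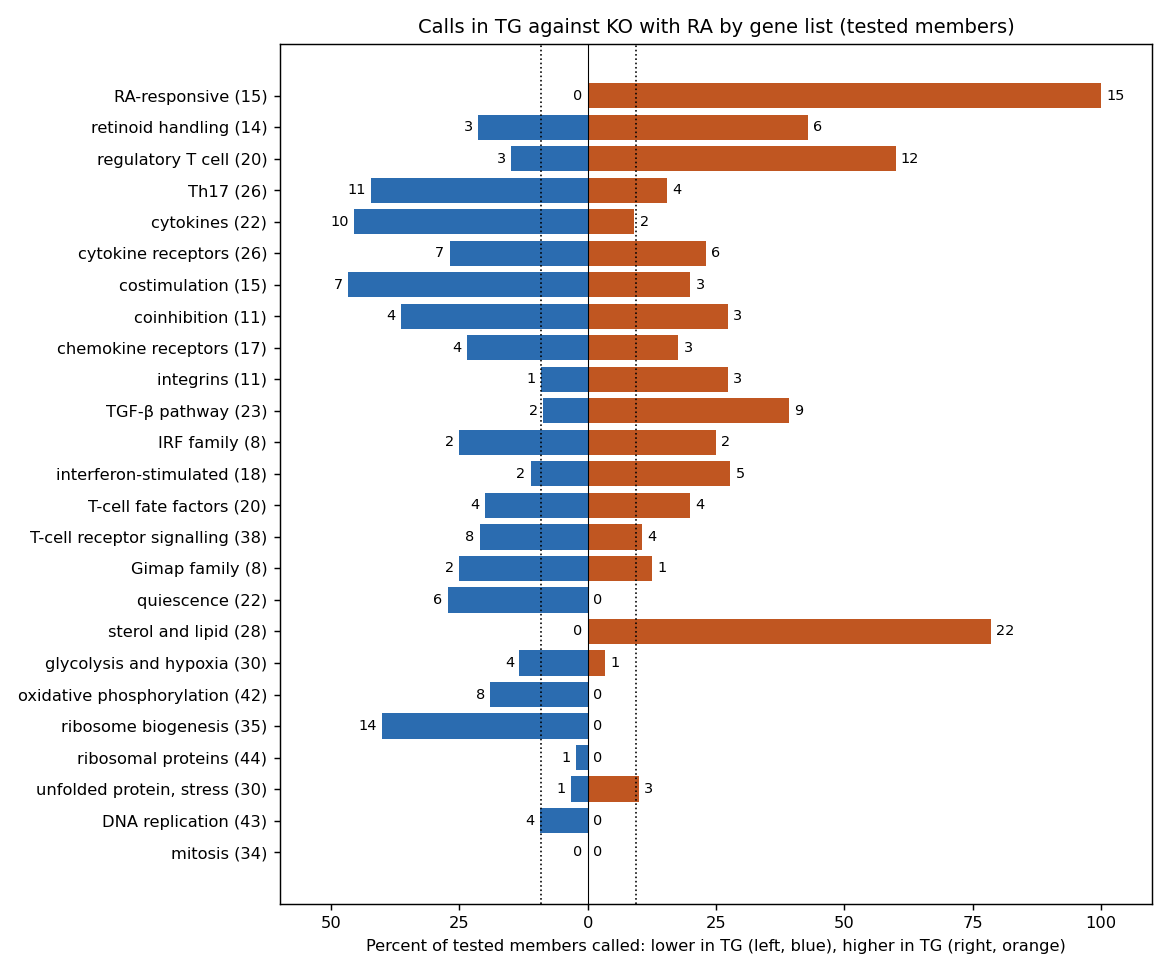
Percent of tested members called lower (left) or higher (right) in TG against KO with RA for 25 lists, with the number called beside each bar, the number tested in brackets and dotted lines at 9.03% and 9.43%, the shares among all genes. The 15 RA-responsive and 22 sterol and lipid calls are all to the right, and the 14 ribosome biogenesis and 8 oxidative phosphorylation calls all to the left.

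Surface receptors and secreted factors changed in both directions. Among all tested genes 9.43% were higher and 9.03% lower, the shares to set beside the counts that follow. Of 15 costimulatory receptors 3 were higher and 7 lower. Icos, the inducible costimulator, read 25.9 and 22.9 FPKM in KO and 7.03 and 5.39 in TG with RA (-1.82 ± 0.14, adjusted p = 7.17e-05), although it was higher in TG without RA (39.8 and 47.9 against 99.4 and 111). Cd2 and Cd6, adhesion and signalling receptors, were lower by 0.65 and 0.82, while Crtam and Cd226 were higher by 1.11 and 0.99. Among 11 co-inhibitory receptors Cd96 (1.03), Tigit and Lag3 were higher and Cd5 (400 and 325 against 178 and 158), Btla (-0.77), Ctla4 and Cd200r1 lower. Without KO replicate 1 or either TG library 2 of the 11 were lower. The 22 cytokines and TNF-family ligands tested had 10 lower and 2 higher members and a median of -0.50. The lower members numbered 5 without KO replicate 1 and 6 without TG replicate 2, and the higher 1 with any 1 library left out. Il2, the T-cell growth factor, read 37.7 and 34.0 against 24.4 and 23.5 (-0.56 ± 0.07). Without RA its gap was wider, at 43.6 and 39.3 against 19.4 and 20.2 (-1.03), and the change between the doses was called (0.46). Tnfsf8, the ligand of CD30, read 19.9 and 13.5 against 5.64 and 3.50 (-1.67), and Tnfsf11, known as RANKL, went the other way at 3.10 and 4.62 against 15.6 and 14.9 (1.76 ± 0.16).

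Cytokine receptors were divided, with 6 of 26 higher and 7 lower, against 9.43% and 9.03% of all tested genes. The higher numbered 3 without KO replicate 1 or TG replicate 1, and the lower 2 to 4 with any 1 library left out. Ifngr1, the ligand-binding chain of the interferon-γ receptor, read 31.5 and 28.0 against 79.0 and 67.4 (1.27 ± 0.10), and Il12rb1, shared by the receptors for interleukin-12 and interleukin-23, 18.7 and 16.7 against 7.11 and 8.35 (-1.10 ± 0.14). Il23r was at or below 0.223 FPKM in both groups and not called. Il1r2, a decoy receptor for interleukin-1, was lower (1.34 and 1.83 against 0.156 and 0.103), and Il21r higher by 0.49. Of 17 chemokine and trafficking receptors 3 were higher (1 without KO replicate 2) and 4 lower. Besides Ccr9 and Ccr6 they included Ccr4 (46.6 and 45.2 against 23.6 and 25.6; -0.87 ± 0.09) and Cxcr3 (3.68 and 4.77 against 1.07 and 1.25; -1.27 ± 0.20), the receptors of Th2 and Th1 cells. S1pr1, which routes cells out of lymph nodes, was not called (adjusted p = 0.057). Tbx21, the Th1 factor T-bet, was higher at 3.14 and 6.41 against 17.0 and 14.7 (1.60 ± 0.29), in cultures that held an antibody against IFNγ.

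Transcription factors outside these programmes included Irf8, an interferon regulatory factor (chr8:120736358-120756694), which read 30.6 and 44.9 FPKM in KO and 165 in each TG library (2.13 ± 0.19, adjusted p = 0.00015). Without RA the order was opposite, 24.1 and 27.3 against 4.38 and 5.05. Its relatives Irf4 and Irf3 were lower, by 0.35 and 0.29, and Irf5 was higher by 1.21, a call lost without KO replicate 1 and without either TG library. Of 18 interferon-stimulated genes tested 5 were higher and 2 lower (1 with any 1 library left out), with Ifit2 at 11.2 in each KO library against 19.9 and 18.7, and Isg15 at 1.69 and 0.743 against 4.57 and 4.16. Gbp2, a guanylate-binding protein, went against them at 82.7 and 71.0 against 24.4 and 15.8 (-1.91 ± 0.33). Isg15 was also higher in TG without RA, by 1.18. Jun (0.70 ± 0.08) was higher and Id3 (-0.86 ± 0.13), which restrains E proteins, lower. Within the TGF-β pathway 9 of 23 members were higher and 2 lower (1 with any 1 library left out). Skil (0.42), Pmepa1 (0.33) and Smurf2 (0.44), which encode proteins that restrain the pathway, were among the higher, and Id3 and Id1 were the lower. The call of Id1 (-0.97) was lost in each of the 4 fits with 1 library left out.

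T-cell receptor signalling genes showed 4 higher and 8 lower of 38, though the lower numbered 4 without KO replicate 1 or TG replicate 1 and 5 without TG replicate 2. Themis, a signalling adaptor, read 5.66 and 5.68 FPKM in KO and 14.2 and 14.0 in TG with RA (1.18 ± 0.08), and Lat, the central adaptor, 298 and 281 against 198 and 191 (-0.57 ± 0.08). Among all tested genes 9.43% were higher and 9.03% lower with RA, so the 4 higher of 38 were near that share. Without RA 22 of the 38 were lower in TG and 1 higher, against 8.81% and 7.21% of all tested genes. The Gimap GTPases, a clustered family in lymphocytes, differed between the doses in 7 of 8 members, all positive, against 8.67% of all tested genes. All 8 were lower in TG without RA, with a median of -2.44, as for Gimap6 (57.9 and 46.2 against 8.94 and 8.51). With RA the median was 0.05 and only Gimap5 (10.8 and 10.9 against 17.8 and 15.8), Gimap4 and Gimap7 were called, the last 2 as lower. The call of Gimap4 (-1.55) was lost in the fit to the 4 libraries. Gimap6 then read 73.0 and 62.0 in KO and 73.4 and 60.6 in TG. Of the genes tied to quiescence 6 of 22 were lower and none higher, and 2 were lower without KO replicate 1 or TG replicate 2. Examples were Slfn2 (210 and 183 against 113 and 96.6; -0.90 ± 0.09) and Btg2 (-0.88 ± 0.12).

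Of the sterol and lipid genes, 22 of 28 tested members were higher in TG with RA (9.43% of all tested genes) and none lower, at a median of 0.40. Most differences were small. Fdft1, squalene synthase, read 14.5 and 16.8 FPKM in KO and 26.7 and 26.3 in TG (0.73 ± 0.08), and Cyp51 67.3 and 66.5 against 101 and 98.9 (0.57 ± 0.09). Elovl6, which lengthens fatty acids, was higher by 0.86 and was also higher without RA. Of the 28 members 7 were called higher in TG without RA and none lower, against 7.21% and 8.81% of all tested genes. The difference between the doses was called in 8, all positive, against 8.67% of all tested genes. Summed over the 29 listed genes, the libraries with RA read 699 and 792 FPKM in KO, 1032.5 and 1061.6 in TG and 859 and 1045 in wild type. Without RA the sums were 729 and 809 in KO, 882 and 932 in TG and 925 and 999 in wild type. With RA, TG lay wholly above KO in 27 of 28 members, against 26.1% of all tested genes. Leave-one-out fits gave 11 to 21 higher calls (11 without KO replicate 1 or either TG library), the sex term 16 and the fit to the 4 libraries 14, with none lower in any of these.

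Ribosome biogenesis genes were lower in 14 of 35 members and higher in none, at a median of -0.20. TG lay wholly below KO in 35 of 35, against 34.9% of all tested genes. Examples were Rrp12 (29.9 and 28.2 against 20.7 and 21.1; -0.46 ± 0.08) and Nob1 (30.7 and 30.6 against 24.0 and 24.6; -0.33 ± 0.05). The count rests on small differences, and it fell to 3 to 6 when any 1 library was left out and to 4 in the fit to the 4 libraries. The ribosomal proteins themselves had 1 called member of 44, Rpl7a (-0.37). Rpl29, which was not in that list, is described below. Of 42 oxidative phosphorylation genes 8 were lower and none higher, and the count was 1 to 4 with any 1 library left out. Ndufa4, a subunit tied to cytochrome c oxidase, stood out at 107 and 105 FPKM in KO against 41.9 and 38.9 in TG (-1.37 ± 0.06, adjusted p = 4.79e-06). It read 99.1 and 105 in wild type with RA and 107 and 118 in TG without RA, so among these groups only the TG libraries with RA were low. Glycolysis and hypoxia genes had 1 higher member of 30, Hk2 (14.7 and 18.7 against 37.6 and 40.4; 1.19 ± 0.16), and 4 lower (2 without KO replicate 1 or either TG library). DNA replication genes had 4 lower of 43 (0 to 2 with any 1 library left out) and mitosis genes none called of 34. Xbp1, a regulator of the unfolded protein response, was higher (0.58 ± 0.05). Of the 30 genes of that list 3 were higher, and fewer with any 1 library left out. The 4 lower of 43 replication genes and these 3 of 30 were near the shares among all tested genes (9.03% lower and 9.43% higher).

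Of the 2200 genes called with RA, 420 were called in the same direction without RA, 197 higher and 223 lower in TG, and 59 of them had a difference between the doses that was called. The comparison without RA uses other libraries of the same lines. Both comparisons came from the same fit, which shares its estimate of each gene's spread, so calls at the 2 doses are not independent. Rpl29, a ribosomal protein gene (chr9:106429454-106431568), read 1.48 and 2.54 FPKM in KO and 29.1 and 26.4 in TG with RA, and 1.54 and 2.49 against 26.2 and 28.9 without it. Wild type ranged from 22.6 to 26.8, so KO was the line apart at both doses. H60b, a stress ligand of the NKG2D receptor (chr10:22158586-22288849), read 23.9 and 18.2 in KO and 0.147 and 0.0649 in TG with RA, with wild type at 0.146 and 0.405. Elobl (chr11:88964658-88966931) read 6.32 and 4.38 in KO with RA and 5.20 and 3.95 without, and was listed at 0 in the 8 other libraries. AA465934 (chr11:83291699-83294632) and Inppl1, the phosphatase SHIP2 (chr7:101822632-101838229), were likewise higher in KO than in both other lines. Akr1c18, which inactivates progesterone, differed in that KO resembled wild type, at 27.1 and 52.7 against 33.7 and 27.0 FPKM, and TG was low at 1.23 and 0.978.

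In all, 13 genes had at least 1 FPKM in the 4 KO libraries and less in the 8 others, and 4 genes the reverse. Among the 4 were Pxylp1 (chr9:96823336-96892669), Abhd14b (chr9:106447459-106452923) and Usp35 on chromosome 7, named after their values were seen. Abhd14b lies close to Rpl29. Nt5e, Fam46a (chr9:85320439-85327348) and Myo6 (chr9:80165031-80311729), called at both doses, are also on chromosome 9. Among the tested genes of a chromosome, those called at both doses with the same sign made up 5.73% on chromosome 7, 5.29% on chromosome 9 and 4.94% on chromosome 11, which carries Rara, against 3.52% of all tested genes. The other autosomes ran from 1.42% on chromosome 8 to 4.31% on chromosome 19. No test was made of this.

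**Figure D4:**
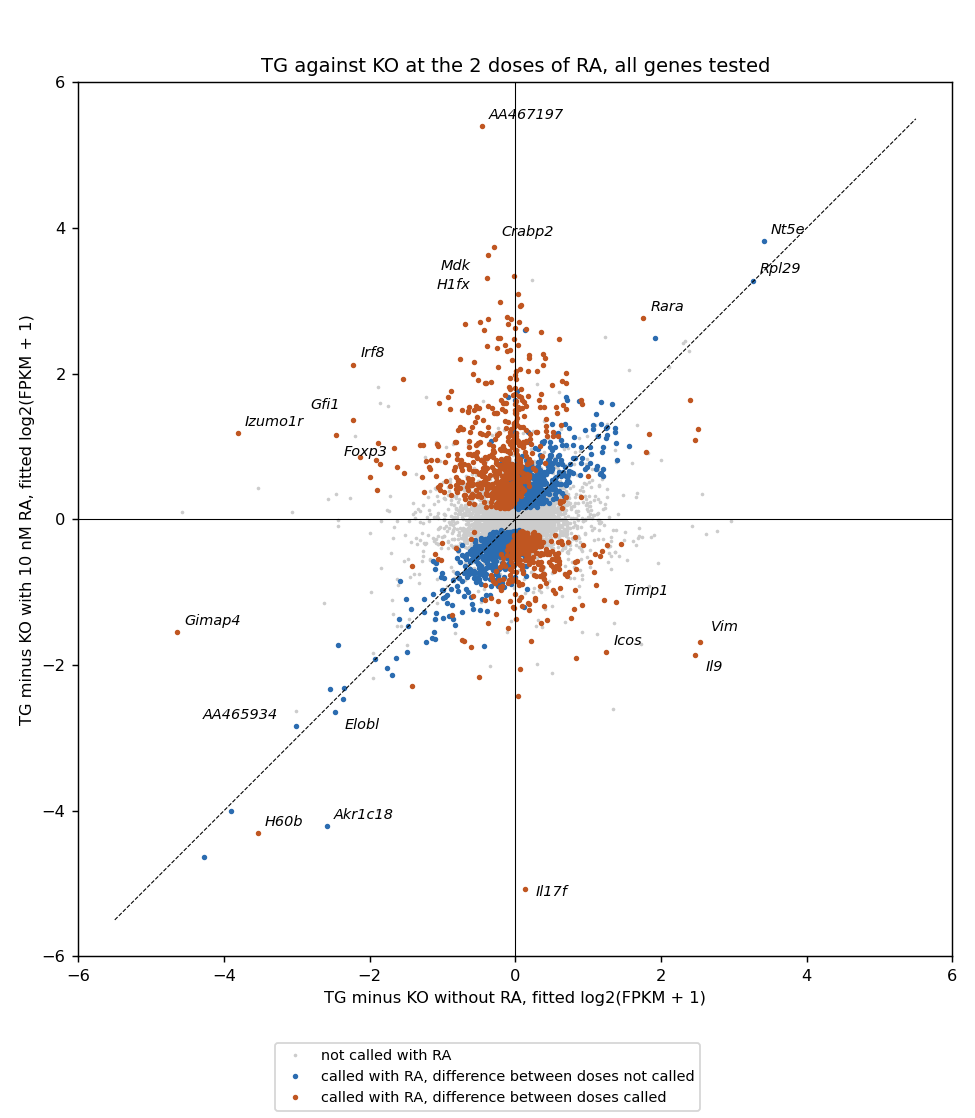
Fitted TG minus KO difference on the log2(FPKM + 1) scale without RA (x axis) and with RA (y axis) for the 11922 tested genes, grey not called with RA, blue called with RA without a called difference between doses, orange called with RA with a called difference between doses, and the dashed line marking equal values. Nt5e, Rpl29 and AA465934 lie near the line, AA467197 and Il17f near the vertical axis, and Irf8, Izumo1r, Vim and Icos in the quadrants of opposite sign.

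A further 305 genes were called at both doses with opposite signs, 212 of them higher in TG with RA and lower without, and 93 the other way round. The difference between the doses was called in each of the 305. Gfi1, Itga4, Tgm2, Izumo1r, Irf8, Foxp3 and Cd96 belonged to the first kind, with lower values in TG than in KO without RA and higher values with it. Vim, the intermediate filament vimentin (chr2:13573927-13582826), was of the second kind. It read 33.6 and 57.3 FPKM in KO and 224 and 303 in TG without RA, and 12 and 15.9 against 3.45 and 3.82 with RA. Il9, a cytokine of Th9 and Th17 cultures, read 88.6 and 139 against 447 and 849 without RA and 28.3 and 25.5 against 4.33 and 10.1 with it. The call of Il9 with RA (-1.86 ± 0.44, adjusted p = 0.0213) was lost in 6 of the alternative fits, among them those without either KO library and without TG replicate 1. Timp1, an inhibitor of metalloproteinases on the X chromosome, was 183 and 266 against 499 and 665 without RA and 146 and 217 against 73.1 and 89.0 with RA, and its call with RA (-1.13) was lost with a term for sex, without KO replicate 2 and without either TG library. Icos, described above, was of the same kind.

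Wild-type cells offer a scale for the comparison, although they did not enter the contrast. Their libraries were all male and those of KO all female, so a position near or far from KO may also reflect sex, which was not tested. With RA the wild-type mean lay between the KO and TG means for 78.6% of the genes called higher and for 84.3% of those called lower, against 47.5% of all tested genes. Choosing genes for a large gap between KO and TG favours such a position, so the shares are a description. Among named genes the wild-type position varied: Mdk, Il17f and Irf4 were near KO, Itga4 and Nt5e near TG, and Crabp2 and AA467197 in between but nearer to KO in FPKM.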

How the data were processed

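RNA of activated CD4 T cells was sequenced as single 100-base reads in 12 libraries of 6 groups, 2 per group. Per the submitters' processing notes, Trimmomatic 0.32, STAR, HTSeq 0.6.1 and DESeq2 were used with GRCm38.p5 (mm10), with no role or order given, and which step made the values is not given in the sources used here. As deposited by the authors, the table gives FPKM for 52635 genes, of which 26727 were at 0 throughout. GENCODE M21 held 52402 of the identifiers, and 27 symbols were restored from it. Where FPKM steps allowed, 95.3% to 95.9% of low values lay within 0.02 of whole reads, which gave the depths.

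Genes with at least 1 FPKM in at least 2 libraries (11922) were fitted as log2(FPKM + 1) with limma 3.58.1 in R 4.3.3, with 6 group means over the 12 libraries (6 residual degrees of freedom) and a trended prior. Differences are given as log2(FPKM + 1), so those of genes with low values come out too small. P-values are two-sided and Benjamini-Hochberg adjusted over all 11922 genes within each comparison, with a threshold of 0.05. Adjusted p-values in the text come from this limma fit. The method was checked on simulated data. The named genes are Rara, the 12 largest rises and 12 largest falls with a mean of at least 2 FPKM in 1 group, the 6 largest in each direction at both doses and of the difference between doses, and up to 4 members with the smallest p of each of 43 lists (180 genes in all). Predicted genes and receptor segments were left out of the ranked sets, and further list members are named to describe their list. The members, lists and rules were chosen with earlier results of these data known. Alternatives were another pseudocount, no filter, upper-quartile scaling, only the 4 libraries compared, a replicate block, a sex term, no X- and Y-linked genes, voom on recovered reads, and each library left out. The labels do not say what a replicate number marks, and numbers were not taken as pairs. A few genes are not reported here. Promoter windows came from RefSeq (GRCm38.p6).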

Additional observations from a re-analysis of the deposited data

Results flagged for a closer look

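The TG minus KO difference was itself compared between the doses, and a tested change in it picked out the following results. The difference was more positive with RA than without it for 1034 genes and more negative for 815 genes (limma, adjusted p under 0.05). Of the named genes that were higher in TG with RA, the change was 5.868 for AA467197, 4.028 for Crabp2, 4.002 for Mdk and 3.7 for H1fx on the log2(FPKM + 1) scale. In those 4 genes the lines did not pass the threshold without RA. For Izumo1r it was 4.992 and for Irf8 4.348, in genes that were lower in TG without RA and higher with it.

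In the other direction the change was -5.202 for Il17f and -2.747 for Gbp2, neither of which was called without RA. It was -4.32 for Il9, -4.223 for Vim, -3.073 for Icos and -2.512 for Timp1, which were higher in TG without RA and lower with it. Each of these 12 genes kept its call of the change in every alternative fit that included it, Timp1 being absent from the fit without X- and Y-linked genes.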

How the results depend on the processing

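No call of the report changed direction under an alternative. With RA, the genes higher in TG numbered 692 to 810 with 1 of the 4 libraries left out, and those lower numbered 454 to 581, the fewest without TG replicate 2. The lower genes numbered 545 with only the 4 compared libraries fitted and 631 with a sex term. Without RA, the higher genes numbered 356 to 635 and the lower 421 to 742 with 1 library left out, the fewest of both without KO replicate 1, and 296 and 441 with only the 4 libraries. Genes with a negative change between doses numbered 431 to 782 with 1 library left out. A fit to fewer libraries has fewer residual degrees of freedom, and so has a fit with a sex term. That term was estimated within TG alone, and the cause of the lower counts with it was not tested. Numbered replicates as a block gave 1346 higher and 1396 lower genes with RA, 1207 and 1370 without, and 1260 and 1094 for the change between doses. Correlations of replicate deviations over the 15 pairs of groups ran from 0.0035 to 0.33, at 0.06 between KO and TG with RA, and between the doses at 0.32 within KO and 0.15 within TG. With 2 libraries a group this does not settle whether the numbers mark pairs. A pseudocount of 0.1 gave 1081 and 1086 with RA, no filter 1190 and 852, upper-quartile scaling 1085 and 1203, and voom on recovered reads 1226 and 1093. Of 147 named genes called with RA, 116 kept the call with only the 4 libraries, 122 with the sex term and 112 to 119 with a library left out. With 2 libraries per group, small differences are the least secure.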
